A study of Mus musculus with 2 samples.

Results

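The sphingosine phosphate and lysophosphatidic acid system was examined in MS-1 and SVEC4-10, a pair of mouse endothelial cell lines, through 10 listed genes: S1pr1, S1pr2, S1pr3, Sphk1, Sphk2, Sgpl1, Spns2, Enpp2, Lpar1 and Lpar4. A gene was included where a probe set (a group of short probes to 1 transcript) was annotated to it alone, which held for 9 of the 10, with 19 probe sets, out of 18193 genes on the array. Enpp2, which encodes autotaxin, the secreted enzyme that makes lysophosphatidic acid, had no such probe set and was not analysed here. MS-1 comes from the microvessels of the pancreas and was grown in 5% fetal calf serum, and SVEC4-10 comes from an axillary lymph node and was grown in 10%. Both are established lines immortalised with SV40 genes. They were split 1 to 6, used up to passage 5 and harvested for total RNA once confluent, after 3 to 5 days. There was 1 Affymetrix array per line, so no difference below has a replicate check, no p-value was computed, and the number of arrays limits the precision. Serum and line cannot be told apart.

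Sphingosine 1-phosphate (S1P) and lysophosphatidic acid (LPA) are small signalling lipids carried in blood and serum that act on G protein-coupled receptors. Inside cells, sphingosine kinases make S1P, a lyase and several phosphatases destroy it, and the transporter Spns2 carries it out of endothelial cells. On endothelium, S1P acting on S1pr1 supports the barrier between vessel and tissue, and S1P in lymph guides lymphocytes out of lymph nodes. LPA is made mainly outside the cell and acts on receptors of a family related to the S1P receptors, among them Lpar1, and on a less related family that includes Lpar4 and Lpar6.

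Each array gave a signal in arbitrary units for 45101 probe sets, and the median signal was 18.7 on MS-1 and 18.4 on SVEC4-10. Background lay at 16.3 and 17.6, the 95th percentile of 129 probe sets of odorant, pheromone, taste and hair keratin-associated genes. The SVEC4-10 array went against its endothelial label: of 15 endothelial markers, 14 were above background on MS-1 and 3 on SVEC4-10 (Kdr, Flt1 and Eng), and their summed signal was 29229 against 187. Fibroblast and smooth muscle markers showed the reverse, with 2 of 12 above background on MS-1 and 9 on SVEC4-10 (summed signal 149.8 against 34379), as did mesothelial markers, with 2 and 5 of 5 (53.1 against 12765). Of 6 leukocyte markers, Ptprc, Cd3e, Cd79a and Itgam were at background on both arrays (summed signal of the list 104 and 51.9). Csf1r was above background on both (45.4 and 35.5), and Adgre1 on MS-1 only (23.9 and 12.9). Of 5 epithelial markers 4 and 3 were above background (summed signal 378 and 164). Krt18 was 8.21-fold and Krt19 at least 6.85-fold higher on MS-1, and Krt8 was 5.20-fold higher on SVEC4-10. The 4 lymphatic endothelial markers were split: Lyve1 was at least 133-fold and Flt4 2.14-fold higher on MS-1, Pdpn was 7.43-fold higher on SVEC4-10, and Prox1 was at background on both arrays (summed signal 3522 and 2138). These marker differences run along with every difference between the lines below, and their part in it was not tested. In RNA from whole cultures, fewer cells of a type and less RNA per cell cannot be told apart.

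The system divided between the lines. S1pr1, Spns2 and Lpar4 were at least 4-fold higher on MS-1, and Lpar1 was at least 4-fold higher on SVEC4-10, so 3 and 1 of the 9 genes passed that size. Over all 18193 genes, 2.93% were at least 4-fold higher on MS-1 and 3.95% on SVEC4-10. At 2-fold the counts were 4 and 3 of 9, beside 8.39% and 10.4% of all genes. The added genes were Sphk2 towards MS-1, and Sphk1 and Sgpl1 towards SVEC4-10, and each of these 3 fell under 2-fold in at least 1 other processing. S1pr2 lay under 2-fold, and S1pr3 was at background on both arrays. Each array detected 6 of the 9 genes, 4 of them shared, and 8 were detected on at least 1 array. Of all genes, 63.0% were above background on MS-1, 61.6% on SVEC4-10 and 69.2% on at least 1.

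**Figure D1:**
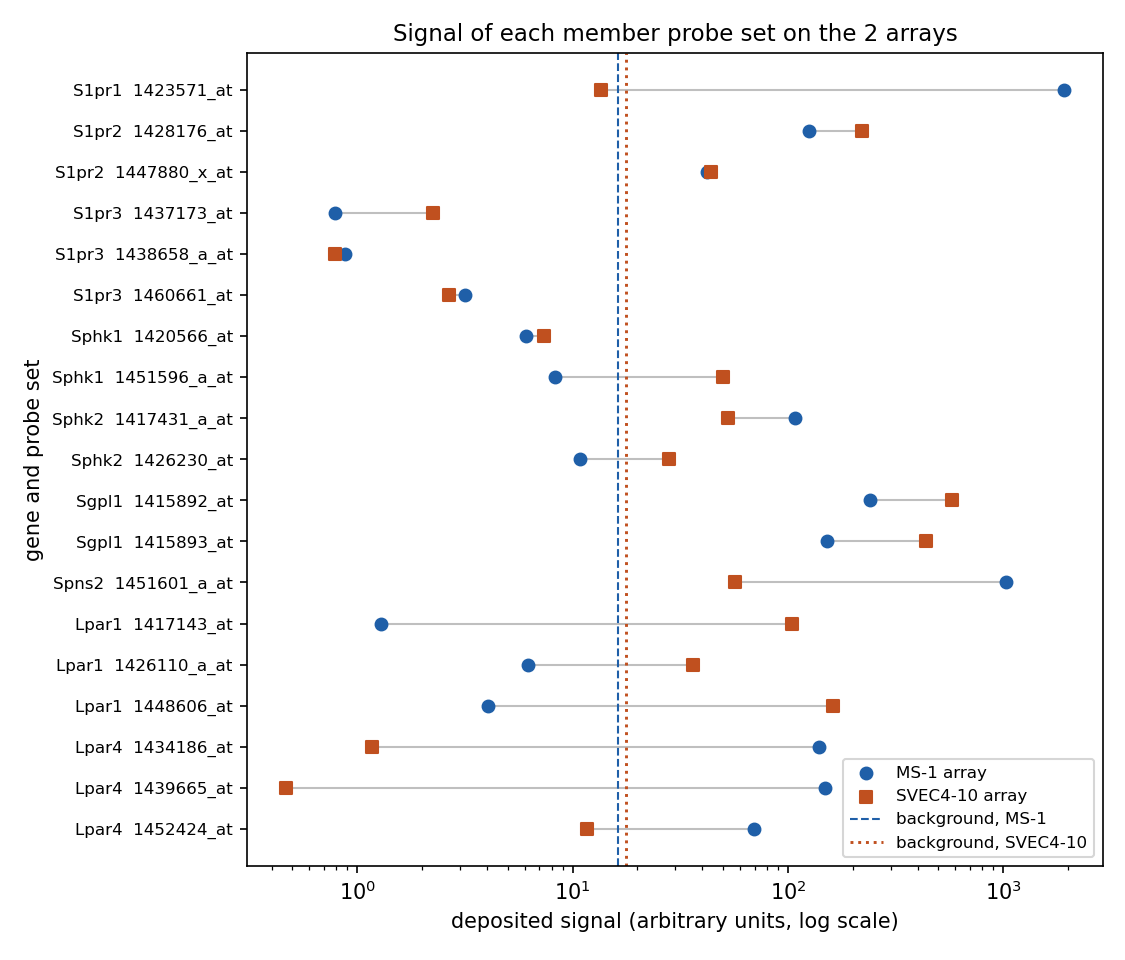
Deposited signal (x axis, arbitrary units, log scale) of each of the 19 probe sets (y axis) on the MS-1 array (circles) and the SVEC4-10 array (squares), with each array's background as a vertical line. S1pr1, Spns2 and all 3 Lpar4 probe sets lie far to the right on MS-1, all 3 Lpar1 probe sets cross background on SVEC4-10 only, and the 3 S1pr3 probe sets stay left of both lines.

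S1pr1, the main S1P receptor of endothelium, had a signal of 1907 on MS-1 and of 13.5 on SVEC4-10. The MS-1 value was far above its background of 16.3, and the SVEC4-10 value did not reach 17.6. Where a signal was at background, the background was used in its place, so the ratio is a lower bound: S1pr1 was at least 108-fold higher on MS-1 (log2 ratio of SVEC4-10 over MS-1 of -6.76). With the background doubled, the bound became -5.76. The gene had a single probe set, so no other probe set could be set beside it.

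The remaining S1P receptors differed less or were not detected. S1pr2, a receptor that counteracts many effects of S1pr1 in endothelium, had signals of 125 on MS-1 and 221 on SVEC4-10, both well above background. That is a 1.76-fold higher signal on SVEC4-10, a log2 ratio of 0.82, where the error of a log2 ratio, estimated from the spread between probe sets of the same gene over 4813 genes, was 0.48. Its second probe set, of a class that may also bind other transcripts, gave 42.1 and 44.0, a log2 ratio of 0.066. Variation between cultures and errors of scaling are not part of this estimate. S1pr3, which in blood vessels is found on smooth muscle and endothelium, had signals between 0.790 and 3.18 over its 3 probe sets and both arrays, all below background, so no ratio is given. Outside the listed members, S1pr4, a receptor known mainly from lymphocytes, had signals of 84.2 on MS-1 and 24.4 on SVEC4-10, 3.45-fold higher on MS-1 by a single probe set. The SVEC4-10 signal of S1pr4 was close to the background of 17.6. With the background doubled, its log2 ratio of -1.79 became a lower bound of -1.26. S1pr5 was at background on both arrays.

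The S1P kinases gave differences that depended on the probe set. Sphk1, a kinase induced by growth factors, had signals of 8.26 on MS-1, below background, and 49.8 on SVEC4-10, above it. It was at least 3.06-fold higher on SVEC4-10 (log2 ratio 1.61). The second Sphk1 probe set was at background on both arrays, with 6.10 and 7.40, so the difference rests on 1 probe set. Doubling the background or averaging the probe sets lowered the log2 ratio to 0.61 and 0.86. Sphk2, the second kinase, found also in the nucleus and mitochondria, had signals of 108 on MS-1 and 52.8 on SVEC4-10 at its brighter probe set. The other Sphk2 probe set ran the opposite way, with 10.9 on MS-1 and 28.1 on SVEC4-10. Their log2 ratios were -1.03 and at least 0.79, so the probe sets of Sphk2 disagreed in direction. Their mean was at least -0.12, a bound that leaves its sign open.

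Spns2, the exporter, had a signal of 1031 on MS-1 and of 56.8 on SVEC4-10, both above background. It was 18.1-fold higher on MS-1 (log2 ratio -4.18, error 0.48). Spns2 also had a single probe set, which matches several transcripts of the gene. Mfsd2b, the S1P exporter of red cells and platelets, and Apom, the S1P carrier of lipoproteins, were at background on both arrays.

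Enzymes that end the S1P signal went in both directions. Sgpl1, the lyase that cleaves S1P irreversibly in the endoplasmic reticulum, had signals of 240.0 on MS-1 and 578 on SVEC4-10 at its first probe set. Its second probe set gave 152 and 440.1. Both were higher on SVEC4-10, by 2.41-fold and 2.90-fold (log2 ratios 1.27 and 1.54, error 0.48). Among the phosphatases fixed as further pathway genes, Sgpp1, which removes the phosphate from S1P inside the cell, had signals of 26.0 on MS-1 and 237 on SVEC4-10, 9.10-fold higher on SVEC4-10, and the 3 probe sets of the gene gave log2 ratios of at least 1.89. Sgpp2, of the same function, was below background on MS-1 (0.607) and barely above it on SVEC4-10 (21.8). The lipid phosphate phosphatases, which degrade both LPA and S1P at the cell surface, were higher on MS-1 or nearly level. Plpp3 gave 497 on MS-1 and 40.5 on SVEC4-10, a 12.3-fold higher signal on MS-1, and its other probe set gave -4.07 on the log2 scale. Plpp2 had signals of 2424 and 504, 4.81-fold higher on MS-1, a log2 ratio of -2.27 that became -1.08 when its background-level second probe set was averaged in. Plpp1 had signals of 1444 and 1255, a log2 ratio of -0.20 that is within the error, which leaves out errors of scaling.

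**Figure D2:**
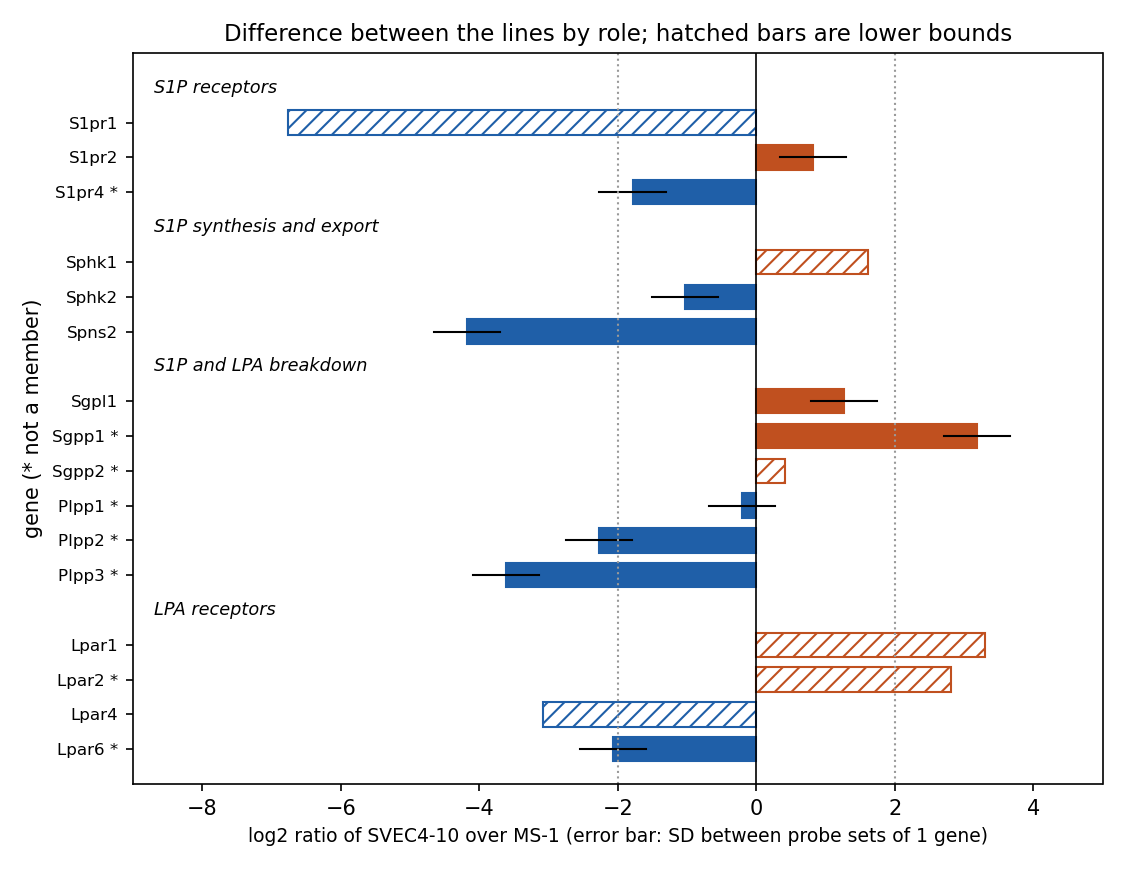
Log2 ratio of SVEC4-10 over MS-1 (x axis) for the detected genes of the system (y axis, asterisks mark genes outside the listed members), grouped by role. Filled bars carry the error between probe sets of 0.48, hatched bars are lower bounds without an error bar, and dotted lines mark 4-fold. S1pr1, Spns2, Plpp3 and Lpar4 extend left towards MS-1, and Lpar1, Sgpp1 and Lpar2 extend right towards SVEC4-10.

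The LPA receptors among the members were each detected on 1 array, Lpar1 on SVEC4-10 and Lpar4 on MS-1. Lpar1, the most widely expressed LPA receptor and a receptor known from fibroblasts, had signals of 4.05 on MS-1 and 161 on SVEC4-10 at the probe set used. Its other probe sets gave 1.28 and 105, and 6.19 and 36.1. All 3 were below background on MS-1 and above it on SVEC4-10. The gene was at least 9.89-fold higher on SVEC4-10 (log2 ratio 3.31), and the other probe sets gave at least 6.43-fold and at least 2.22-fold, the last under 4-fold.

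Lpar4, an LPA receptor found on developing blood vessels, was detected on MS-1 only. Its signals were 149 on MS-1 and 0.468 on SVEC4-10 at the probe set used. The other probe sets gave 139 and 1.17, and 69.8 and 11.7. All 3 were above background on MS-1 and below it on SVEC4-10. Lpar4 was at least 8.46-fold higher on MS-1 (log2 ratio -3.08), and the other probe sets gave at least 7.92-fold and at least 3.96-fold, the last just under 4-fold. With a signal near 149, no fold much larger than this could be shown against a background of 17.6, whatever the true difference.

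Of the LPA receptors outside the listed members, Lpar2, a relative of Lpar1, had signals of 11.6 on MS-1, below background, and 115 on SVEC4-10. It was at least 7.04-fold higher on SVEC4-10, with 1.97 on the log2 scale at the other probe set. Lpar6, a relative of Lpar4, had signals of 804 on MS-1 and 192 on SVEC4-10, 4.18-fold higher on MS-1 by a single probe set. Lpar1 and Lpar2 were thus both higher on SVEC4-10, and Lpar4 and Lpar6 both higher on MS-1. Lpar3, also a relative of Lpar1, was at background on both arrays, and Lpar5 had no probe set of its own. Among other enzymes that can form LPA or its relatives, Pla1a, a phospholipase, was close to background (19.4 and 17.8), and Liph was below it on both arrays. Enpp3, a further pathway gene, was also below background on both arrays.

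To set sequence beside these values, the 250 bases before the annotated start are shown for the members at least 4-fold apart that the RefSeq promoter table (build GRCm38.p6) holds: Spns2 and Lpar4, higher on MS-1, and Lpar1, higher on SVEC4-10. Of the 10 genes, 8 were in the table, all but S1pr1 and Enpp2. Each is written 5′ to 3′ in the direction of the gene. Spns2 lies at chr11:72475028-72475277 on the minus strand, at a start inside the longest annotated span of the gene. Lpar4 lies at chrX:106920375-106920624 on the plus strand. Lpar1 lies at chr4:58553492-58553741 on the minus strand, the farthest upstream of 3 listed starts. Capitals mark matches, on either strand, to 3 motifs: GGGCGG (the GC box), TATAAA (the TATA box) and GGAAGT (a core bound by ETS factors).
Spns2: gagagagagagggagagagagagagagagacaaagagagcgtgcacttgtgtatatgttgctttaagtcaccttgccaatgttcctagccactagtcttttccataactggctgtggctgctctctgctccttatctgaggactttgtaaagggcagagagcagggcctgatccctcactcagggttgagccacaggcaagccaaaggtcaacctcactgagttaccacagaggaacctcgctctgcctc
Lpar4: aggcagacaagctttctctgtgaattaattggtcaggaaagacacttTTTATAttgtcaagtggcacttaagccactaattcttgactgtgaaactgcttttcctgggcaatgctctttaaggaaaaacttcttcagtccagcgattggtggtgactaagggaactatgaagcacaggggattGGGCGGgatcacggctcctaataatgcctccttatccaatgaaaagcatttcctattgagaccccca
Lpar1: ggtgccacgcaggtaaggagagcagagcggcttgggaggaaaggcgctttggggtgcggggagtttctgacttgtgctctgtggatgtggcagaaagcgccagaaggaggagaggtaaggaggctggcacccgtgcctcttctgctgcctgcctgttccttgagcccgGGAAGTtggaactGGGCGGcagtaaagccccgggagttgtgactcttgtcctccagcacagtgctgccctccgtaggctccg

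The Spns2 window held none of the 3 motifs, the Lpar4 window held 1 GC box and 1 TATA box, and the Lpar1 window held 1 GC box and 1 ETS core. Over all 32851 promoter windows of the same length, 32.7% held the GC box, 12.4% the TATA box and 19.7% the ETS core. Among the 8 member windows the counts were 5, 2 and 1. CpG dinucleotides numbered 2 in Spns2, 3 in Lpar4 and 11 in Lpar1, where the median of all windows was 6. The members with smaller differences had 31 (Sgpl1), 27 (Sphk2), 14 (S1pr2) and 4 (Sphk1), and S1pr3 had 9. A match describes these letters only, and a window without one says nothing about the factor.

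The wider pathway held further genes that differed in both directions. Of 43 further genes, 41 had a probe set of their own. Differences of 4-fold or more towards MS-1 were found for 5 and towards SVEC4-10 for 3, beside 2.93% and 3.95% of all genes. These counts were 2 and 3 with probe sets averaged, 3 and 1 with the probe set of smallest ratio, and 7 and 3 with poly-A scaling, so the balance at 4-fold turned with probe sets averaged. At 2-fold, 11 were higher on MS-1 (7 with the probe set of smallest ratio) and 3 on SVEC4-10. Of those apart, 21.4% were thus higher on SVEC4-10, against 55.4% over all genes. With the probe set of smallest ratio the shares were 30% and 56.3%. The pathway list was chosen with earlier results of these data known, so these shares are no test of the pathway. The median log2 ratio was -0.12, beside 0 for all genes, with undetected genes set at 0. Scaling the arrays to the poly-A control transcripts, which were 1.46-fold higher on the SVEC4-10 array, lowers every log2 ratio by 0.54. It gave 15 and 3 pathway genes at 2-fold, a share of 16.7% on SVEC4-10 against 23.9% over all genes.

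The 15 genes listed for ceramide and sphingosine supply, some of which make or use ceramide, were all detected, with 10 under 2-fold. Of them, 2 were at least 4-fold higher on MS-1 and 1 on SVEC4-10, beside 2.93% and 3.95% of all genes. The MS-1 count became 0 both with probe sets averaged and with the probe set of smallest ratio. Cers6, a ceramide synthase for shorter acyl chains, had signals of 2.81 on MS-1 and 337 on SVEC4-10 and was at least 20.7-fold higher on SVEC4-10. Cers4, a ceramide synthase for longer chains, gave 388 on MS-1 and 71.5 on SVEC4-10, 5.42-fold higher on MS-1, and its log2 ratio of -2.44 became -1.94 with its 3 probe sets averaged and -1.56 at the probe set of smallest ratio. Asah2, the neutral ceramidase that releases sphingosine at the cell surface, had signals of 738 and 158, 4.68-fold higher on MS-1, although 1 of its 3 probe sets gave a log2 ratio of 0.32. Degs1, which makes ceramide from its precursor, and Ugcg, which diverts ceramide to glycolipids, were 3.46-fold and 2.45-fold higher on MS-1. Cers2 and Cers5, other ceramide synthases, gave log2 ratios of -0.14 and -0.038, within the error, but beyond it towards MS-1 with poly-A scaling.

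The listed G protein alpha subunits, which are some of those through which these receptors signal, were all above background on both arrays. Of 6 genes, 0 were at least 4-fold apart. At 2-fold, 2 were higher on MS-1, Gnaq and Gna12, with log2 ratios of -1.27 and -1.16, beside 8.39% of all genes. Gna13 gave -0.75, but its probe sets ran from -1.20 to 0.45 and so disagreed in direction. The detected probe sets of Gna12 ran from -1.50 to -0.078. After poly-A scaling 3 of the 6 passed 2-fold towards MS-1, beside 3370 of all 18193 genes. With the probe set of smallest ratio for each gene the count was 0. Gnai2 and Gnai3, inhibitory alpha subunits to which S1pr1 couples, gave -0.18 and -0.062, within the error of 0.48. Gna11, a relative of Gnaq, gave 0.018, also within the error. Poly-A scaling, which lowers every log2 ratio by 0.54, puts Gnai2, Gnai3 and Gna11 beyond the error, higher on MS-1.

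**Figure D3:**
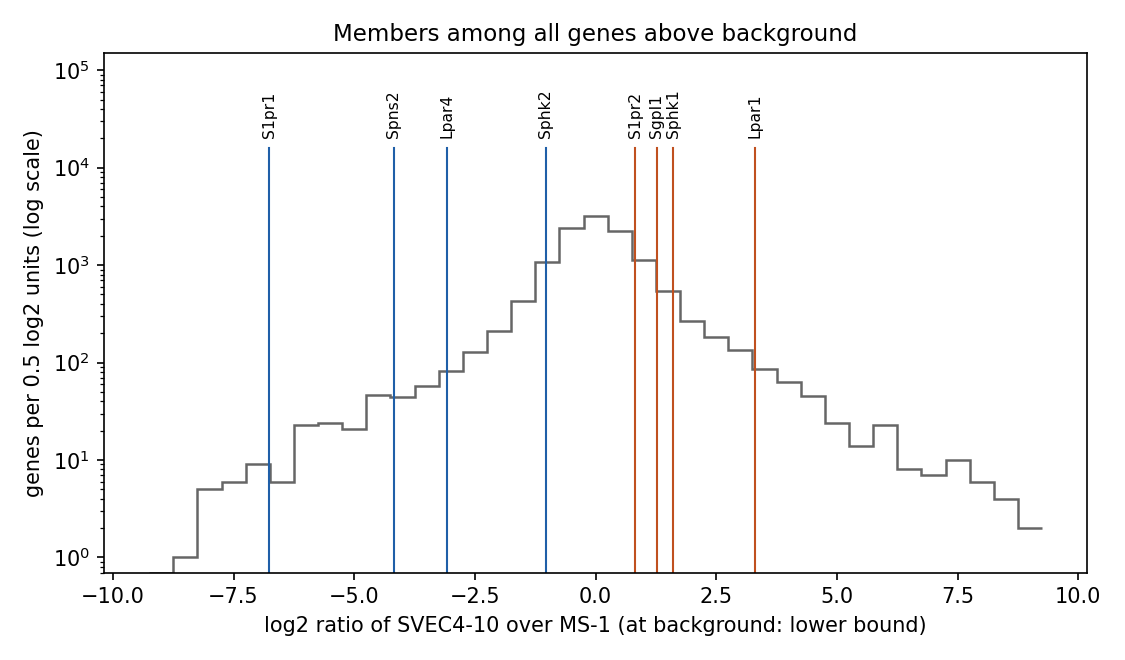
Number of genes (y axis, log scale) by log2 ratio of SVEC4-10 over MS-1 (x axis, in steps of 0.5) for the 12583 genes detected on at least 1 array, with the 8 detected members as vertical lines. S1pr1 at -6.76 lies in the outer tail, Spns2 at -4.18, Lpar4 at -3.08 and Lpar1 at 3.31 lie in the tails, and the other 4 lie nearer the centre.

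With 2 arrays each gene has 1 ratio, so closeness of that ratio is the only measure of a like pattern. Among 37 detected cell type markers, the nearest to S1pr1 was Egfl7, a secreted endothelial protein (-7.00), and the nearest to Spns2 was Tek, the angiopoietin receptor (-4.12). Lpar4 was nearest to Krt18, an epithelial keratin (-3.04), and Lpar1 to Pdpn, podoplanin of lymphatic endothelium and other cells (2.89). The other detected lymphatic markers, Lyve1 and Flt4, had ratios of the opposite sign (-7.06 and -1.10). The other detected epithelial markers were split, with Krt19 at -2.78, Epcam at -0.18 and Krt8 at 2.38. The ratios of S1pr1, Egfl7, Tek, Lpar4, Lpar1, Lyve1 and Krt19 are lower bounds, so their order can differ from that of the true ratios.

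**Figure D4:**
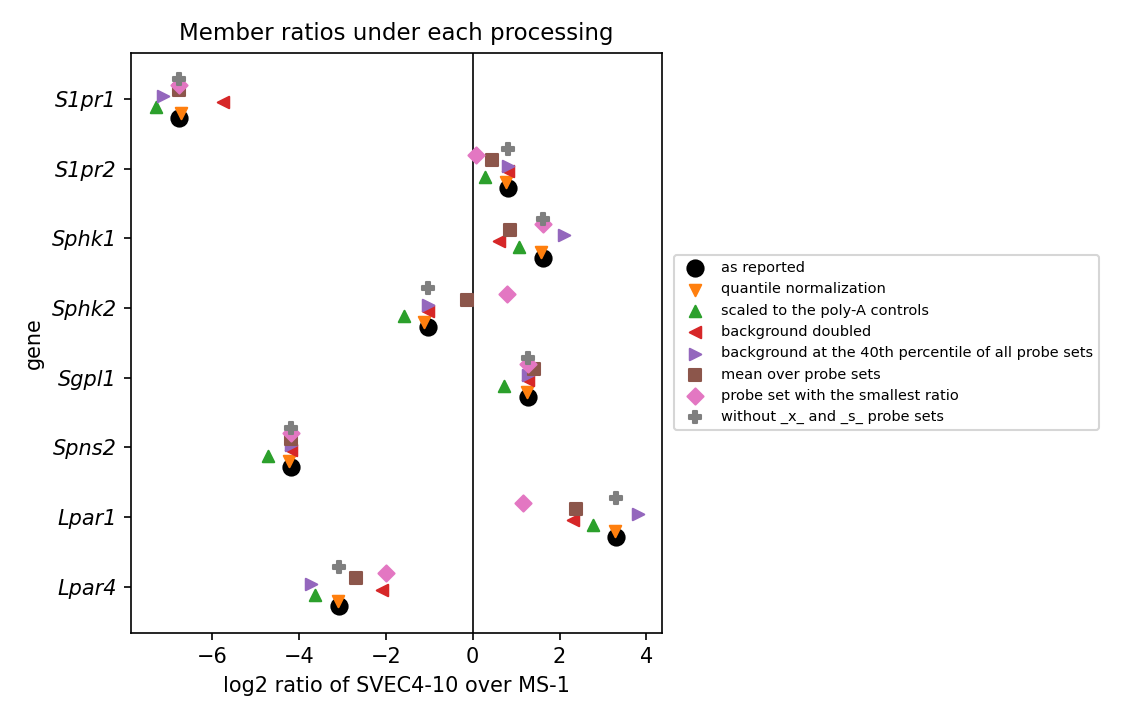
Log2 ratio of SVEC4-10 over MS-1 (x axis) of the 8 detected members (y axis) as reported (black circles) and under 7 other ways of processing the arrays. Sphk2 crosses 0 when the probe set with the smallest ratio is used, and the other 7 genes stay on the side of 0 on which they are reported.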

How the data were processed

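Total RNA (6 µg) from 1 culture per line was biotin-labelled as cRNA by the standard Affymetrix protocol, per the labels. The authors deposited linear intensities, 1 per probe set, and both arrays had the same 2%-trimmed mean of 150.001, so each had been scaled to a common target. The summary method is not given in the sources used here.

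Gene names came from the platform's annotation, brought up to date in RefSeq through gene identifiers. Of 45101 probe sets, 34945 had 1 gene (34741 matched in RefSeq), 932 had several and were left out, 9160 were unnamed here and 64 were controls. Values were raised to background before the log2 ratio. A gene was represented by its detected probe set of highest mean log2 signal, avoiding probe sets ending in _x_at or _s_at where another was detected. With 1 array per line no test was made, and genes were counted by size. The error is the standard deviation of the difference between the log2 ratios of a gene's 2 brightest probe sets, divided by the square root of 2. The steps were tested on simulated arrays.

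Named genes were the members, further pathway genes at least 4-fold apart, the other S1P and LPA receptors and the nearest marker. Pathway genes outside this rule (named after their values were seen) are Sgpp2, Plpp1, Mfsd2b, Apom, Pla1a, Liph, Enpp3, Degs1, Ugcg, Cers2, Cers5, Gnaq, Gna11, Gna12, Gna13, Gnai2 and Gnai3. Part of the pathway list is not reported here by gene. Members, lists and motifs were chosen with earlier results of these data known. Python 3.11.15, numpy 2.4.6 and pandas 2.3.3 were used.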

Additional observations from a re-analysis of the deposited data

How the results depend on the processing

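No paired analysis was possible because each line has 1 array. The alternatives were quantile normalization, scaling to 18 poly-A controls, background doubled, background set at the array's 40th percentile, averaging the probe sets, taking the probe set of smallest ratio, and leaving out probe sets ending in _x_at or _s_at. Several settings could not change a given member. Leaving out _x_at and _s_at probe sets changed no member, since none was represented by one. The single probe sets of S1pr1 and Spns2 left nothing to average or choose. S1pr2, Sphk2, Sgpl1 and Spns2 stayed above the other backgrounds on both arrays. The 56 member log2 ratios under the alternatives include such fixed values, so their tally is no measure of robustness. Of them, 55 kept their sign, Sphk2 with averaged probe sets only as a lower bound. In size, 34 moved by less than the error of 0.48. The 1 that reversed was Sphk2, at 0.79 with the probe set of smallest ratio. The same setting turned Asah2 to 0.32, where the other pathway genes were added to the alternatives after their values were seen. The count of members at least 4-fold higher on MS-1 stayed at 3 (S1pr1, Spns2 and Lpar4), except 2 with the smallest ratio, where Lpar4 was at -1.99. The count for SVEC4-10 was 1, became 2 with background at the 40th percentile (Sphk1 at 2.10 with Lpar1) and 0 with the smallest ratio (Lpar1 at 1.15). At 2-fold, Sgpl1 was at 0.73 with poly-A scaling. That scaling moved the share of all genes at least 4-fold apart that were higher on SVEC4-10 from 57.4% to 36.1%. Signal over background limits the folds of S1pr1 (-5.76 with background doubled), Lpar1, Lpar4 and Sphk1, whose ratios are lower bounds.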
